A study of Mus musculus with 16 samples.

Results

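Chaperones bind unfolded or aggregation-prone proteins and help them to fold. Data are described here for 10 genes, 9 of them chaperones or their partners and the tenth Xbp1, taken by name from the 19999 genes of the deposited count table, and all 10 were present. In the cytosol, Hsp70 proteins (Hspa8, which is made at all times, and the heat-inducible Hspa1a) take up client proteins that J-domain partners (Dnaja1, Dnajb1) deliver, the nucleotide exchange factor Hsph1 releases them, and the Hsp90 proteins (Hsp90aa1, Hsp90ab1) mature a later set of clients, kinases and tau among them. In the endoplasmic reticulum (ER), the Hsp70 protein Hspa5 (BiP) and the Hsp90 protein Hsp90b1 (GRP94) serve secreted and membrane proteins. Xbp1 encodes a transcription factor of the unfolded protein response, which raises ER chaperone genes when unfolded proteins build up. Its mRNA is spliced in the cytoplasm to make the active factor, and 3′ counts do not tell the spliced form from the unspliced one. Chaperones are of interest in Alzheimer's disease because they meet misfolded tau and amyloid precursor protein.

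Single nuclei of the medial prefrontal cortex (prelimbic and infralimbic) were sequenced from 16 male mice aged 22 weeks, 1 library per mouse and 4 mice per group. The groups were WT control and WT alcohol, of the B6;129 background, and 3xTg-AD and 3xTg-AD alcohol, also on a B6;129 background. The 3xTg-AD mouse carries human APP (Swedish) and mutant human tau transgenes, driven by a neuronal Thy1 cassette, among its alleles. Alcohol mice breathed ethanol vapor in repeated cycles and were sampled during abstinence, after a water maze test. They also received ethanol with pyrazole, which slows ethanol clearance, and the other mice received pyrazole in saline and air, so that all 4 groups share pyrazole and the maze.

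The table held 114512 nuclei and 216742276 unique molecular identifiers (UMIs), with a median of 1543 UMIs per nucleus and between 4955 and 9096 nuclei per mouse. Total UMIs per mouse ran from 9622031 to 17544364. Nuclei were put into classes by marker genes that hold no chaperone, and each class is named for its markers. The classes held 43366 glutamatergic neurons, 5652 GABAergic neurons, 5366 astrocytes, 1452 oligodendrocytes, 896 oligodendrocyte precursors and 1233 microglia, and 55321 nuclei (48.3%) stayed unassigned, most of them nearest to a mixture of classes. Markers were higher inside their own class than outside it in every class, except that 2 of the 10 glutamatergic markers, Camk2a and Nrgn, were lower in glutamatergic neurons than in the other nuclei. Some 1694 barcodes occurred in more than 1 mouse. WT control 26, WT control 27 and 3xTg-AD 12 stood apart by Gm42418, a transcript that overlaps ribosomal RNA sequence, at 29046, 19430 and 17914 CPM (UMIs of the gene per 1000000 UMIs), against 2059 to 4249 CPM in the other 13 mice.

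The ER chaperones Hspa5 and Hsp90b1 differed between neuron classes in CPM, with TMM factors and in nuclei of like depth. The DNA around the starts of their genes is shown for that reason. Hspa8, Hsp90aa1 and Hsp90ab1 also differed in each of these ways, so a difference was not particular to the ER genes. Hspa5 lies on the plus strand of chromosome 2 from 34771970 to 34777547 and Hsp90b1 on the minus strand of chromosome 10 from 86690209 to 86705509 in mm10. The windows below are RefSeq sequence of GRCm38.p6, 5′ to 3′ on the gene's strand, from 250 bases before to 50 bases after a start of the gene. Capitals mark the ER stress element, CCAAT and CCACG with any 9 bases between them, searched on both strands, the motif through which the unfolded protein response acts on ER chaperone genes.
Hspa5, chr2:34771840-34772139, plus strand: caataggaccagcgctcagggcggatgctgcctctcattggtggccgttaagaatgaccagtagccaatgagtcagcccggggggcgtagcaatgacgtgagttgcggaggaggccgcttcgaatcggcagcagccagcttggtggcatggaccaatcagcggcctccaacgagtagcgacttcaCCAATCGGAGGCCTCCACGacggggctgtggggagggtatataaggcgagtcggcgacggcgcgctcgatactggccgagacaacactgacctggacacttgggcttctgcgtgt
Hsp90b1, chr10:86705395-86705694, minus strand: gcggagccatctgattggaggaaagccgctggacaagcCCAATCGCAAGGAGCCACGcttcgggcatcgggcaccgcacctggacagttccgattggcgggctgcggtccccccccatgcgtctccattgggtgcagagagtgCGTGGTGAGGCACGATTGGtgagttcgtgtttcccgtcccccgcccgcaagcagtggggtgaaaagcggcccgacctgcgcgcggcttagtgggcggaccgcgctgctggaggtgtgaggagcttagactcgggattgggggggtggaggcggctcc
The Hspa5 window held 1 match, beginning 65 bases before the start, and the Hsp90b1 window held 2, beginning 107 and 212 bases before it. The RefSeq starts used for these distances lie downstream of the gene starts given above, so the Hspa5 match, at 34772025 to 34772043, falls inside the gene by those coordinates, and both Hsp90b1 matches fall before it. The motif occurred in 39 of 32544 promoter windows of this length (0.12%). Among the 7 members with a window in the table, Hspa5 and Hsp90b1 were the ones that held it. A heat shock element, GAA, TTC and GAA or TTC, GAA and TTC with any 2 bases between neighbours, searched on both strands, occurred in 198 windows (0.608%) and among members in Hsph1, after the start, as TTCTGGAAAGTTC. No windows were found for Hspa8, Hsp90aa1 and Hsp90ab1. A match describes letters and shows no binding.

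Both ER chaperones were higher in GABAergic than in glutamatergic neurons of the same mouse, in all 16 mice. In glutamatergic neurons Hspa5 ran from 79.0 to 200.0 CPM with a median of 134 CPM, and in GABAergic neurons from 119 to 265 CPM with a median of 195 CPM. Hsp90b1 ran from 124 to 252 CPM (median 180 CPM) in glutamatergic and from 209 to 400.0 CPM (median 264 CPM) in GABAergic neurons. The ranges overlap between mice, and it is within each mouse that the classes separate. The GABAergic minus glutamatergic difference was 0.49 on the log2 scale for Hspa5 (95% interval 0.37 to 0.62) and 0.59 for Hsp90b1 (0.50 to 0.67), each with an adjusted p of 8.98e-05 in a two-sided sign-flip permutation test over mice. The unadjusted 3.05e-05 is the smallest p that 16 mice can give. Xbp1 differed by -0.01 (-0.14 to 0.13, adjusted p = 0.95 in the same permutation test), with means of 75.3 ± 17.7 CPM and 75.8 ± 23.5 CPM (SD, n = 16).

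The difference for the ER chaperones was present in each of the 4 groups. Per group, its mean for Hspa5 was 0.40 in WT control, 0.49 in WT alcohol, 0.36 in 3xTg-AD and 0.72 in 3xTg-AD alcohol mice on the log2 scale. For Hsp90b1 it was 0.57, 0.63, 0.46 and 0.68 in the same order. The lowest single mouse was at 0.10 for Hspa5 and at 0.34 for Hsp90b1, so no mouse had the reverse order.

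CPM is a share of a nucleus's RNA, and GABAergic nuclei had fewer UMIs (median 1853) than glutamatergic nuclei (median 2492). When the classes were scaled to each other with TMM factors, which centre the bulk of genes, all differences moved by -0.20. The ER chaperones then differed by 0.29 (Hspa5, higher in 15 of 16 mice) and 0.39 (Hsp90b1, higher in 16). Among nuclei with at least 1500 and under 2500 UMIs, a range chosen after the data were seen, the differences were 0.49 and 0.57. In UMIs per nucleus the classes lay closer, at 0.366 and 0.388 for Hspa5 and 0.494 and 0.558 for Hsp90b1 in glutamatergic and GABAergic neurons.

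**Figure D1:**
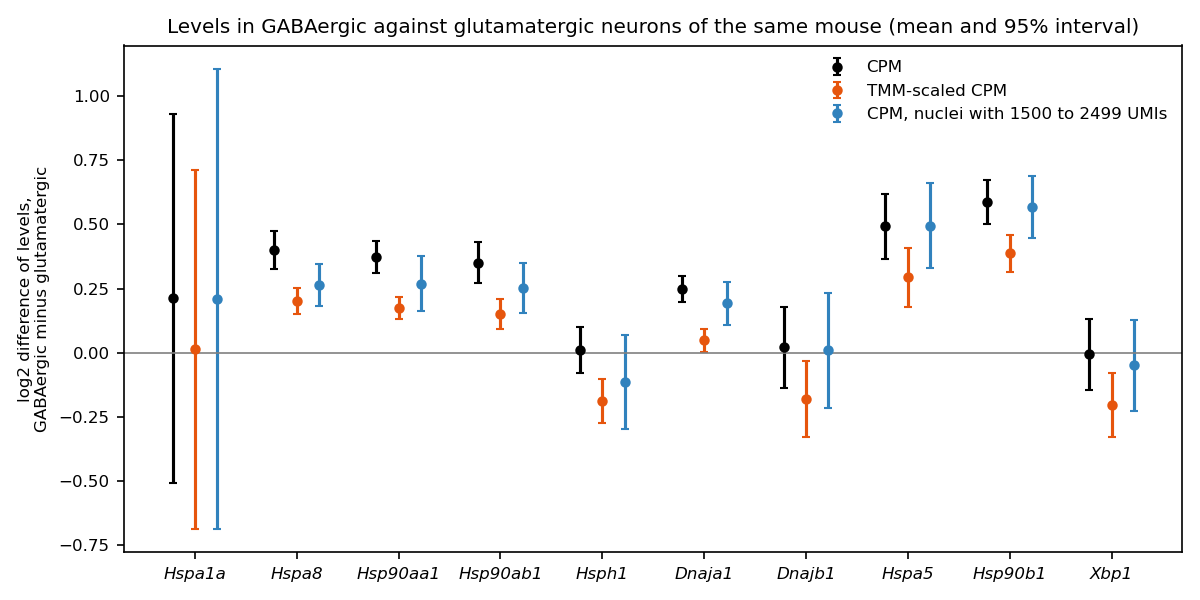
Difference in level between GABAergic and glutamatergic neurons of the same mouse (log2 scale, y axis) for each of the 10 genes (x axis), as the mean over 16 mice with its 95% interval, from CPM (black), TMM-scaled CPM (orange) and CPM of nuclei with at least 1500 and under 2500 UMIs (blue). Hspa5, Hsp90b1, Hspa8, Hsp90aa1 and Hsp90ab1 stay above 0 on all 3 scales. Hsph1, Dnajb1 and Xbp1 lie near 0 in CPM and below 0 with TMM factors.

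The cytosolic genes split into 2 sets between the same neurons. Hspa8 was higher in GABAergic neurons by 0.40 on the log2 scale (0.33 to 0.47), Hsp90aa1 by 0.37, Hsp90ab1 by 0.35 and Dnaja1 by 0.25, each in 16 of 16 mice with an adjusted permutation p of 8.98e-05. Hspa8 had a mean of 405 ± 66.3 CPM in glutamatergic and 535 ± 89.0 CPM in GABAergic neurons (SD, n = 16). Hsph1 and Dnajb1 were close to 0. Hsph1 differed by 0.01 (-0.08 to 0.10) and Dnajb1 by 0.02 (-0.14 to 0.18). With TMM factors the first 3 genes kept a higher level (0.20, 0.17 and 0.15), Dnaja1 lost its call (0.05, adjusted permutation p = 0.0583), and Hsph1 (-0.19) and Dnajb1 (-0.18) changed direction and were called lower. Among nuclei with at least 1500 and under 2500 UMIs, Hspa8, Hsp90aa1, Hsp90ab1 and Dnaja1 kept their direction and their call. Per nucleus, Hspa8 gave 1.10 UMIs in glutamatergic and 1.08 in GABAergic neurons.

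Hspa1a was near the floor of the assay. It had 1117 UMIs in all nuclei together, and its mean was 3.38 ± 1.11 CPM in glutamatergic and 3.91 ± 2.56 CPM in GABAergic neurons, a difference of 0.21 (-0.51 to 0.93). Hspa1a and its neighbour Hspa1b are nearly identical copies, so reads from either one may have been assigned to the other or dropped.

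In glial classes the CPM of most cytosolic chaperones was higher than in glutamatergic neurons. TMM factors moved all genes by -0.17 in astrocytes, -0.44 in oligodendrocytes, -0.53 in oligodendrocyte precursors and -0.73 in microglia on the log2 scale. On that scale Dnaja1 (0.02), Hsph1 (0.33) and Dnajb1 (0.17) in precursors were no longer called against glutamatergic neurons (adjusted permutation p = 0.899, 0.0887 and 0.535). The same held in microglia for Dnaja1 (0.15, adjusted permutation p = 0.194), and Hsph1 there turned to -0.14 (adjusted permutation p = 0.731). Among nuclei with at least 1500 and under 2500 UMIs, Dnajb1 in astrocytes was at 0.47 and not called (adjusted permutation p = 0.0977). Hspa8 rose from 405 CPM in glutamatergic neurons to 790 CPM in oligodendrocyte precursors, 1014 CPM in oligodendrocytes, 1095 CPM in astrocytes and 1112 CPM in microglia, where the last 3 neighbours in this order were not separated (adjusted permutation p = 0.125 and 0.439). Hsp90ab1 was highest in astrocytes, at 1840 ± 273 CPM (SD, n = 16), above microglia at 1610 CPM (adjusted permutation p = 0.0122). Dnajb1 had its highest mean in microglia, at 65.3 CPM, with an SD of 49.2 CPM between mice. Of 150 comparisons over 15 pairs of these 6 classes, 112 passed an adjusted p of 0.05, and 92 did with TMM factors. The share of all genes that would pass between these classes is not given here. The counts are therefore not a result particular to chaperones.

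These glial values stand beside those of the unassigned nuclei. Unassigned nuclei had 1013 CPM of Hspa8, 1214 CPM of Hsp90aa1 and 1499 CPM of Hsp90ab1, close to the glial classes. For Hspa5 and Hsp90b1 the unassigned nuclei lay near the level of GABAergic neurons, so this limit is not one of glia alone. To gauge free RNA, the ratio of each member to 4 transcripts of glutamatergic neurons (Camk2a, Nrgn, Arpp21 and Slc17a7) was taken in a class and divided by the same ratio in unassigned nuclei. A value of 1 is what free RNA would give if unassigned nuclei held nothing else. All 4 gauges were also markers used to assign nuclei to glutamatergic neurons. Assignment to another class, GABAergic neurons among them, therefore favours low gauges and ratios above 1. The ratio cannot tell this from RNA of the class itself. In GABAergic neurons all 10 members were above 1 on all 4 gauges, though Hspa1a, with 47 UMIs, in 7 of 16 mice and Dnajb1 in 14 of 16 on the lowest gauge, Hspa5 at 2.24 to 5.79, Hsp90b1 at 2.49 to 6.43 and Hspa8 at 1.23 to 3.18. In astrocytes and in microglia 0 of 10 members were above 1 on all gauges, in oligodendrocytes 1 of 10, and in oligodendrocyte precursors 6 of 10, Hspa5 among them at 1.47 to 6.05. These glial counts turned on 1 gauge in microglia and oligodendrocytes, where all 10 members were above 1 on the other 3 gauges, Hspa8 in microglia for instance at 0.616 with Nrgn and at 1.43 to 4.82 with the others. In astrocytes the lowest gauge was Camk2a, at 0.351 for Hspa8 against 1.01 to 3.47 with the others. Hsph1, Dnaja1, Dnajb1, Hsp90b1 and Xbp1 were below 1 there with Nrgn as well, and Xbp1 (0.697) also with Slc17a7 (0.971). The lowest gauges were themselves above their level in unassigned nuclei, Camk2a at 3836 CPM in astrocytes against 1264 CPM and Nrgn at 2137 CPM in microglia against 1232 CPM. The gauges disagree on the part of free RNA in the levels of astrocytes, microglia and oligodendrocytes, ER genes included. Hspa1a in oligodendrocytes rested on 15 UMIs and was above 1 in 6 of 16 mice on its lowest gauge. The 6 members above 1 in oligodendrocyte precursors were Hspa1a, Hsph1, Dnajb1, Hspa5, Hsp90b1 and Xbp1, and on their lowest gauge Hspa5 was above 1 in 15 of 16 mice, Hsp90b1 in 12, Hsph1 and Xbp1 in 10, Dnajb1 in 6 and Hspa1a in 5.

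The glial levels of the ER genes stand under the same limit. Hspa5 had 227 ± 38.8 CPM in astrocytes, 175 ± 70.2 CPM in oligodendrocytes, 260 ± 64.6 CPM in microglia and 265 ± 78.0 CPM in oligodendrocyte precursors (SD, n = 16), the last pair not separated (adjusted permutation p = 0.969). For Hsp90b1 oligodendrocytes, astrocytes and GABAergic neurons lay together between 258 and 276 CPM. Xbp1 was lowest in astrocytes at 60.5 ± 22.8 CPM and highest in microglia at 122 CPM. With TMM factors microglia were not separated from glutamatergic neurons for Hspa5 (0.28), Hsp90b1 (0.21) or Xbp1 (0.05). The adjusted permutation p-values were 0.0646, 0.176 and 0.717. Oligodendrocytes were not separated from them for Hsp90b1 either (0.07, adjusted permutation p = 0.751). Classes with few nuclei were pooled over mice, and endothelial cells (177 nuclei) gave 254 CPM of Hspa5 with an exact Poisson 95% interval of 201 to 316 CPM, which covers counting error only.

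**Figure D2:**
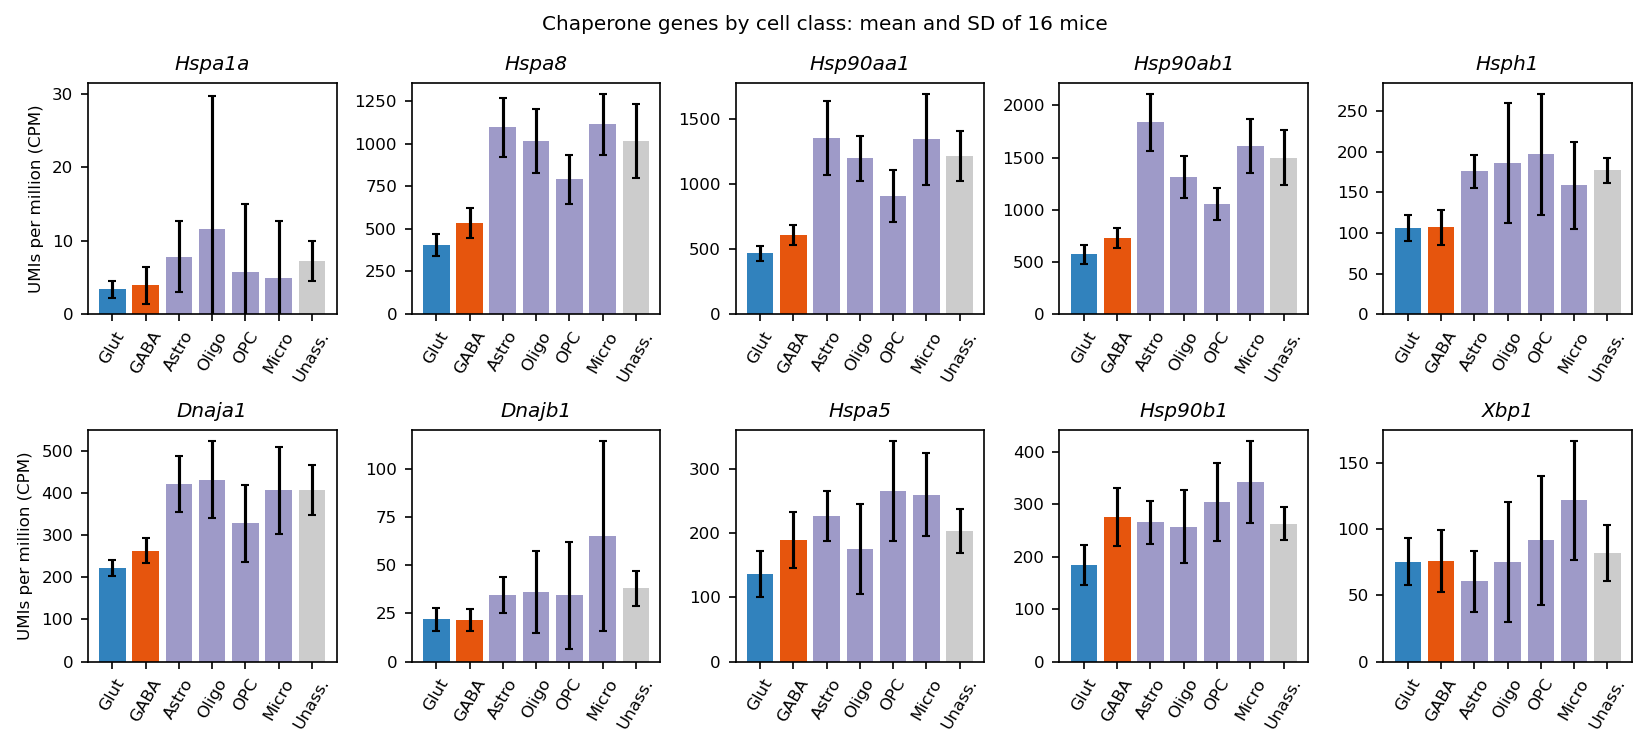
Level of each member (CPM, y axis, from 0) in 6 cell classes and in unassigned nuclei (x axis), as the mean and SD of 16 mice. For Hspa8, Hsp90aa1 and Hsp90ab1 the unassigned nuclei stand near the glial bars. For Hspa5 and Hsp90b1 the GABAergic bar stands above the glutamatergic one and near that of unassigned nuclei.

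Neuronal subclasses were compared next, with 4 of each kind. Of 16 pairs of a GABAergic with a glutamatergic subclass, Hsp90b1 was higher in the GABAergic member in 13 and lower in 0, and Hspa5 in 11 and 0. With TMM factors these counts were 10 and 6, and in the range of 1500 to under 2500 UMIs 11 and 7. Hspa8 and Hsp90aa1 were each higher in 12 pairs and lower in 0. With TMM factors they were higher in 5 and 5, and in that range of UMIs in 5 and 7. Hsp90b1 was highest in Vip interneurons at 340 ± 84.6 CPM and lowest in L5 ET neurons at 168 ± 44.2 CPM (SD, n = 16). Vip exceeded Pvalb (0.29 on the log2 scale, adjusted permutation p = 0.0141) but was not separated from Lamp5 (adjusted permutation p = 0.131). Hspa5 was highest in Sst at 219 ± 69.4 CPM and Vip at 212 ± 71.6 CPM, which were not separated (adjusted permutation p = 0.819), and lowest in L5 ET at 131 ± 43.6 CPM.

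Hsph1 was called higher in the GABAergic subclass in 0 of the 16 pairs and lower in 5. The count of lower pairs was 11 with TMM factors, 4 in the narrow range of UMIs and 1 with a wider lead of the markers, so it depends on these settings. Its highest level was in the near-projecting L5/6 NP neurons, at 149 ± 26.6 CPM (SD, n = 16), above L6 CT neurons at 118 ± 23.8 CPM (adjusted permutation p = 0.00173). L5/6 NP neurons also led the glutamatergic subclasses for Hspa8, Hspa5 and Hsp90b1, and had the lowest median depth of them, 1800 UMIs per nucleus against 3447 in L5 ET. Over the 280 subclass comparisons 151 were called, against 90 with TMM factors and 75 in the narrow range of UMIs. For these counts and the counts of pairs, the share of all genes is not given here either.

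**Figure D3:**
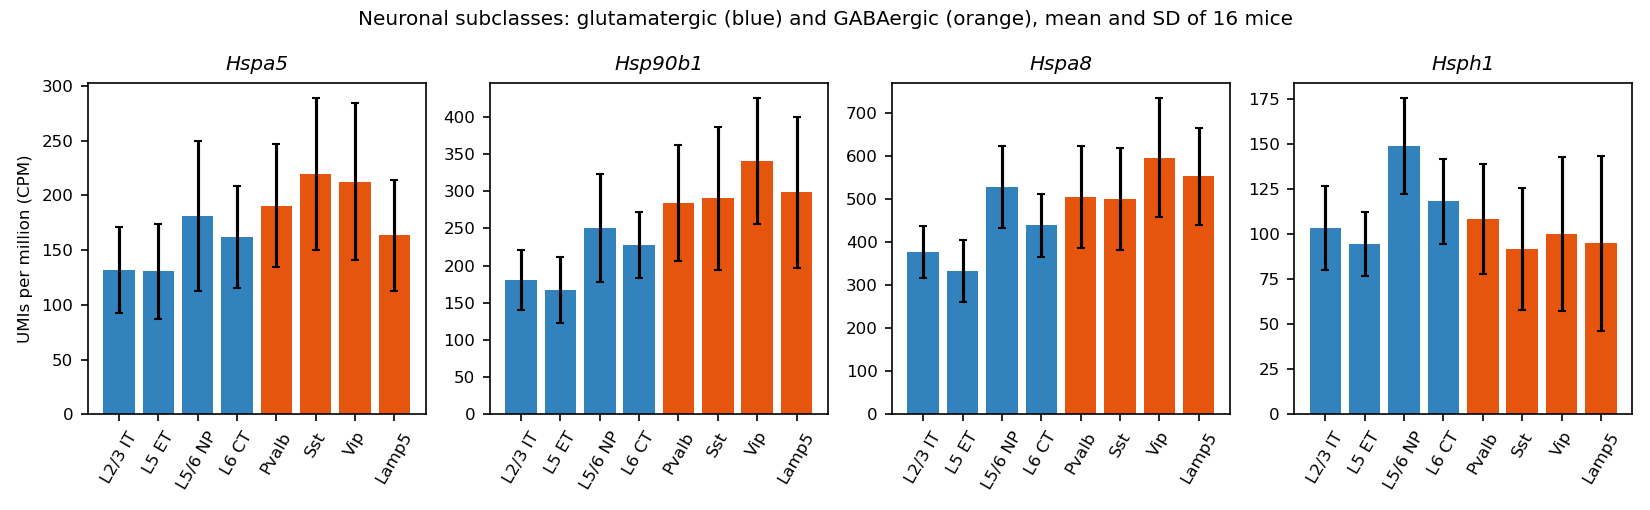
Level of Hspa5, Hsp90b1, Hspa8 and Hsph1 (CPM, y axis, from 0) in 4 glutamatergic (blue) and 4 GABAergic (orange) subclasses (x axis), as the mean and SD of 16 mice. Hsp90b1 is above 280 CPM in every GABAergic subclass and at 250 CPM or below in every glutamatergic one, while Hsph1 peaks in L5/6 NP neurons at 149 CPM.

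Across the 14 classes and subclasses, Hspa8 and Hsp90aa1 had nearly the same profile of mean log2 CPM (Pearson r = 0.998), and Hspa5 was closest among members to Hsp90b1 (r = 0.889). Xbp1 had r = 0.305 with Hspa8 and 0.481 with Hsp90b1. Among 16766 genes, those most like Hspa8 besides Hsp90aa1 were Skp1a and Atp5o, those most like Hsp90ab1 were Rps20, Ubb and Tuba1b, and those most like Hspa5 were Kxd1 (0.969), Arhgef40 (0.953) and Lgals1 (0.947). The Hspa8 profile was shared by 1018 genes above r = 0.9 and the Hspa5 profile by 58. These 14 points share libraries and free RNA and differ in depth, so the values are descriptions.

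Genotype and alcohol were compared on counts summed per mouse, with edgeR's quasi-likelihood test over 16767 genes and Benjamini-Hochberg adjustment. In sums over all nuclei, fewer nuclei of a class and less RNA per nucleus cannot be told apart. No member was called in any of the 6 contrasts, where 0.435% of all genes were called for 3xTg-AD against WT control, 0.0179% for WT alcohol against WT control, 0.483% for 3xTg-AD alcohol against 3xTg-AD, 0.942% for 3xTg-AD alcohol against WT alcohol, 4.06% for 3xTg-AD alcohol against WT control and 0.0% for the interaction of genotype and alcohol. At an unadjusted p of 0.05 the members numbered 2, 0, 0, 1, 2 and 0 of 10 in that order, beside 8.18%, 14.2%, 12.01%, 14.004%, 20.1% and 3.48% of all genes. DESeq2 called 0 members in all 6 contrasts, and 179, 149, 386, 394, 1178 and 1 of all genes. The first 2 contrasts and the fifth share the WT control mice. The median log2 fold change of the 10 members was 0.12 for 3xTg-AD and 0.12 for WT alcohol against WT control, beside 0.00 and -0.01 over all genes. For 3xTg-AD alcohol it was -0.06 against 3xTg-AD, -0.07 against WT alcohol and 0.07 against WT control. For the interaction it was -0.14. Over all genes these were 0.01, -0.01, 0.00 and 0.01.

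Hspa8, the constitutive Hsp70, had its lowest mean in WT control mice. Over all nuclei it was at 587, 525, 534 and 476 CPM in WT control mice and at 784, 579, 793 and 630 CPM in WT alcohol mice. It was at 495, 758, 827 and 753 CPM in 3xTg-AD mice and at 713, 654, 849 and 632 CPM in 3xTg-AD alcohol mice. WT control mice lay below all 3xTg-AD alcohol mice and overlapped the other groups by 1 mouse each, 3xTg-AD 12 and WT alcohol 7. Against WT control the log2 fold change was 0.36 ± 0.16 (SE) for 3xTg-AD, 0.33 ± 0.16 for WT alcohol and 0.39 ± 0.16 for 3xTg-AD alcohol, with adjusted p-values of 0.551, 0.359 and 0.177 by edgeR.

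In glutamatergic neurons WT control mice again had the lowest mean. Hspa8 was at 344, 307, 343 and 299 CPM in WT control mice and at 449, 372, 445 and 368 CPM in WT alcohol mice. It was at 351, 493, 502 and 473 CPM in 3xTg-AD mice and at 443, 404, 478 and 410 CPM in 3xTg-AD alcohol mice. All 12 mice of the other groups were above all 4 WT control mice. The share of all genes that separate the groups in this way is not given here. The log2 fold changes against WT control were 0.43 ± 0.12 (SE) for 3xTg-AD (adjusted p = 0.203), 0.27 ± 0.12 for WT alcohol (0.376) and 0.41 ± 0.12 for 3xTg-AD alcohol (0.0723), none called by edgeR. DESeq2 called the first (0.43, adjusted p = 0.0498) and the third (0.42, adjusted p = 0.0200). Without the 3 mice richest in Gm42418, 2 of them WT controls, edgeR called both, at 0.66 (adjusted p = 0.0412) and 0.57 (adjusted p = 0.0202). Leaving out WT control 26 alone gave 0.52 for 3xTg-AD alcohol (adjusted p = 0.0388). That was the 1 call for 3xTg-AD alcohol among 16 fits that left out 1 mouse, with adjusted p-values up to 0.181 by edgeR. For 3xTg-AD against WT control 0 of 16 such fits gave a call.

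Xbp1 was called for genotype when both treatments were averaged. Over all nuclei it was at 53.8, 82.6, 56.7 and 77.9 CPM in WT control mice and at 67.5, 63.7, 57.7 and 58.9 CPM in WT alcohol mice. It was at 76.5, 104.9, 118.5 and 72.6 CPM in 3xTg-AD mice and at 96.7, 93.8, 93.0 and 67.0 CPM in 3xTg-AD alcohol mice. The higher 3xTg-AD mice lay above every WT mouse, and the lowest ones overlapped the WT range. Averaged over both treatments, 8 mice against 8, a contrast chosen after the data were seen, 3xTg-AD exceeded WT by 0.48 ± 0.11 on the log2 scale (SE; 95% interval 0.24 to 0.71; 1.39-fold; adjusted p = 0.0225 by edgeR, 0.00245 by DESeq2). It was the 1 member called, where 3.28% of all genes were called. Without 3xTg-AD 13 the change was 0.45 and missed the threshold (adjusted p = 0.0581). The single contrasts gave 0.42 without alcohol (adjusted p = 0.398) and 0.53 under alcohol (adjusted p = 0.129), and their difference, the interaction, was 0.10 (-0.36 to 0.57).

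**Figure D4:**
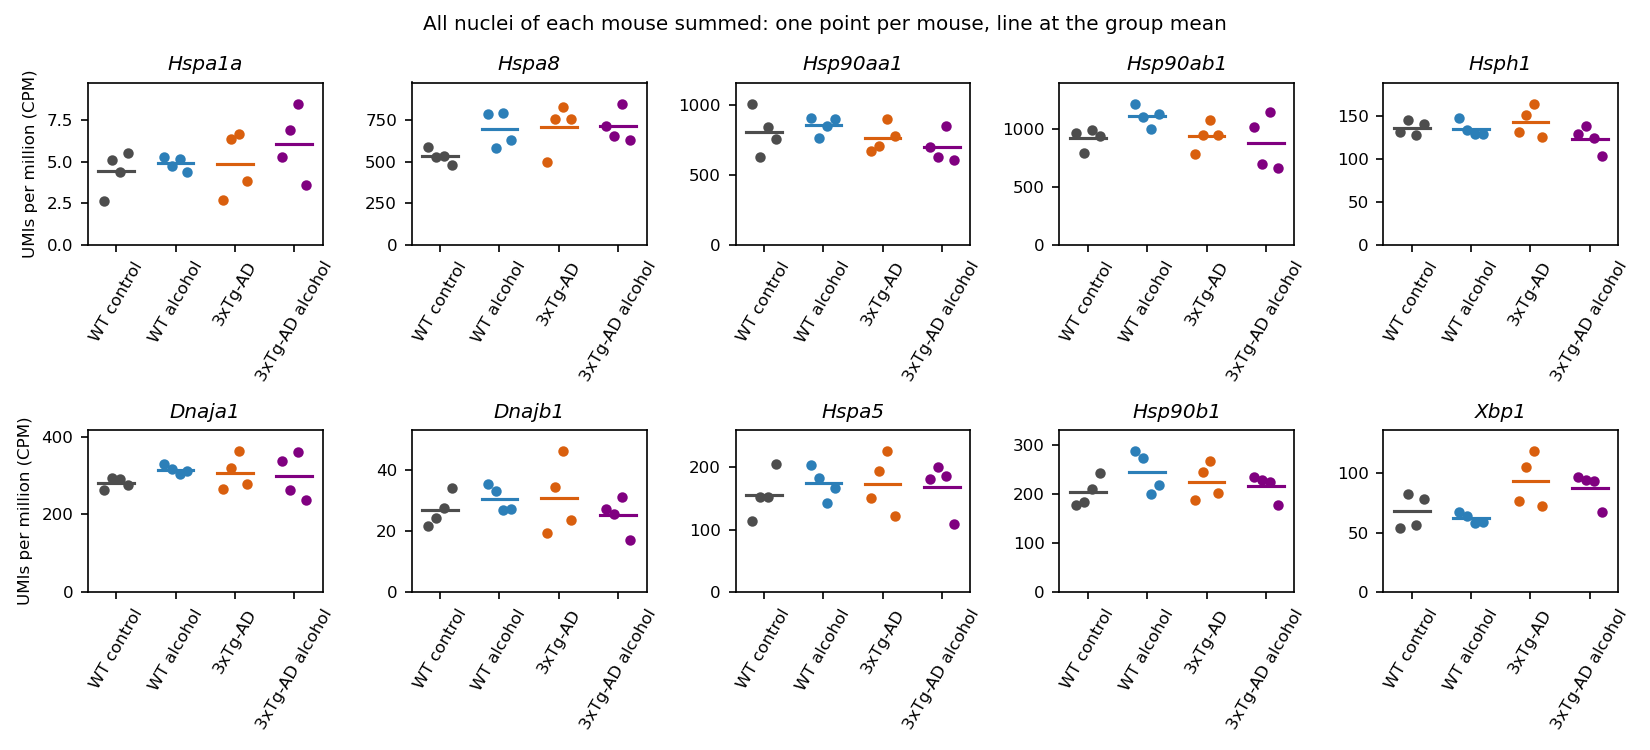
Level of each member over all nuclei (CPM, y axis, from 0) in each mouse (points), with the mean of each group of 4 mice (line). Hspa8 has its lowest mean in WT control mice (476 to 587 CPM) and Xbp1 is highest in 3xTg-AD mice (up to 118.5 CPM).

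Within classes, Xbp1 was higher in 3xTg-AD mice in glutamatergic neurons (0.42 ± 0.11, adjusted p = 0.0372), in astrocytes (0.73 ± 0.18, adjusted p = 0.0160), in unassigned nuclei (0.54 ± 0.11, adjusted p = 0.00820) and in the glutamatergic subclass L2/3 IT (0.51 ± 0.11, adjusted p = 0.0119; log2 fold change ± SE, edgeR, genotype over both treatments). Over the 6 classes 2 of 49 member tests were called, where 2.21% of all gene tests were, and over the 8 subclasses 1 of 63, where 0.915% were. By class the share of genes called was 2.74% in glutamatergic neurons, 1.05% in GABAergic neurons, 3.43% in astrocytes, 0.869% in oligodendrocytes, 0.166% in their precursors, 0.998% in microglia and 2.22% in unassigned nuclei. By subclass it was 1.58% in L2/3 IT, 0.969% in L5 ET, 0.512% in L5/6 NP, 0.87% in L6 CT, 0.456% in Pvalb, 0.333% in Sst, 0.353% in Vip and 0.236% in Lamp5 neurons. In GABAergic neurons the change was 0.50 ± 0.14 and missed the threshold (adjusted p = 0.0757). It was called with no filter on low counts (0.51, adjusted p = 0.0113) and with the Gm42418 covariate (0.55, adjusted p = 0.0446). The same held without the 3 mice richest in Gm42418 (0.64, adjusted p = 0.0113) and without mixture profiles (0.53, adjusted p = 0.0451). Of 16 fits that left out 1 mouse, 2 called it, without 3xTg-AD 21 (0.59, adjusted p = 0.0211) or WT control 27 (0.64, adjusted p = 0.00630). Those 16 fits ran from 0.42 to 0.64, with adjusted p-values up to 0.176 by edgeR.

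These calls differed in how far they rested on single mice. The L2/3 IT call stood in all 16 fits that left out 1 mouse. The glutamatergic call stood in 5 of 16, with fold changes of 0.37 to 0.48 and adjusted p-values up to 0.0901, and was lost when the Gm42418 share entered as a covariate, at a fold change of 0.41 (log2, adjusted p = 0.0573). The astrocyte call was lost without 3xTg-AD 14 (0.61, adjusted p = 0.0594) or WT control 26 (0.64, adjusted p = 0.0721), and without the 3 mice richest in Gm42418 (0.72, adjusted p = 0.0601). Astrocyte values rested on 11 to 81 Xbp1 UMIs per mouse. The call in unassigned nuclei was not refitted without single mice or under any other setting.

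Neuronal RNA in astrocytes moved with genotype as well. The 10 glutamatergic markers summed to 7672 CPM in astrocytes of WT control, 6727 CPM in WT alcohol, 5625 CPM in 3xTg-AD and 5387 CPM in 3xTg-AD alcohol mice, over single-mouse ranges of 6043 to 10030, 5260 to 7543, 4350 to 6968 and 4764 to 6134 CPM. Of the 10, 9 had a lower mean in 3xTg-AD than in WT mice and 0 were at 0, and Camk2a fell in astrocytes of 3xTg-AD mice by 0.51 on the log2 scale (adjusted p = 0.0399 by edgeR). The part of this in the astrocyte Xbp1 value was not tested.

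Hspa8 had a log2 fold change of 0.21 ± 0.11 (SE) for genotype over both treatments in all nuclei (adjusted p = 0.374), 0.29 ± 0.09 in glutamatergic neurons (adjusted p = 0.0912) and 0.30 ± 0.10 in GABAergic neurons (adjusted p = 0.128), none of them called by edgeR. In glutamatergic neurons it was called by DESeq2 (0.29, adjusted p = 0.0259) and by edgeR without the 3 mice richest in Gm42418 (0.40, adjusted p = 0.0125), without 3xTg-AD 12 (0.32, adjusted p = 0.0458) or without WT control 26 (0.34, adjusted p = 0.0357). In GABAergic neurons edgeR called it without those 3 mice (0.45, adjusted p = 0.00739) and with the Gm42418 share as a covariate (0.37, adjusted p = 0.0264). The remaining members stayed between -0.20 (Hsp90aa1) and 0.23 (Hspa1a), and the ER chaperones were at 0.06 (Hspa5, -0.22 to 0.33) and -0.01 (Hsp90b1, -0.19 to 0.17).

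**Figure D5:**
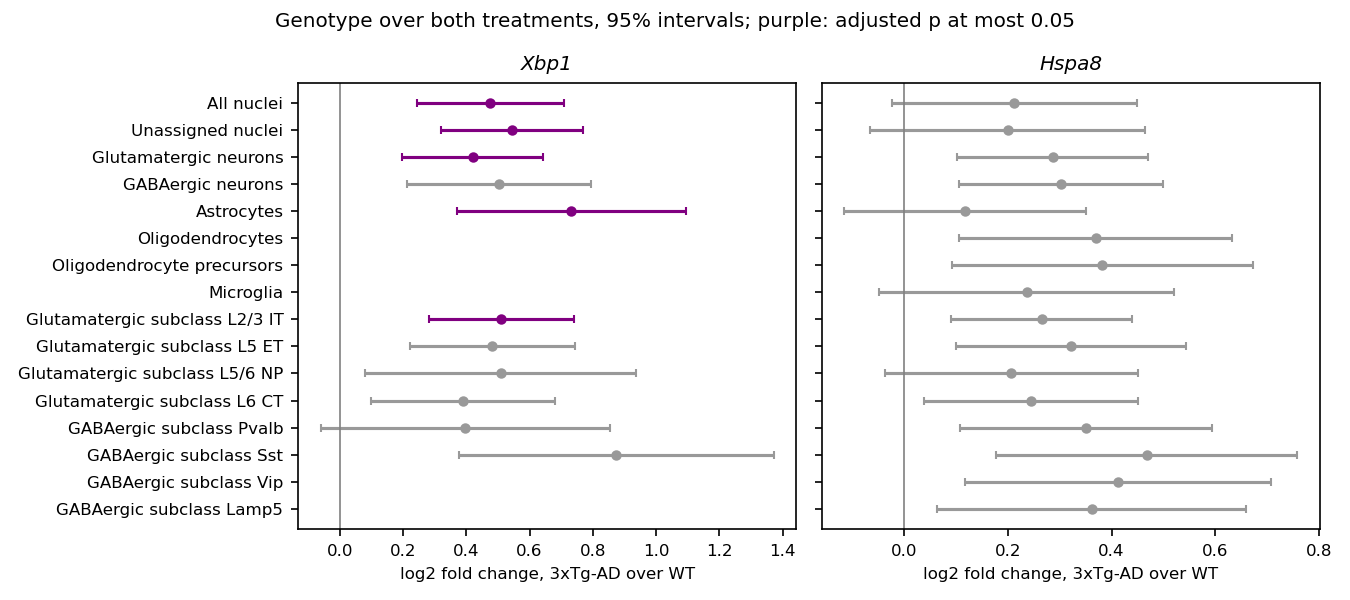
Log2 fold change of 3xTg-AD over WT mice averaged over both treatments (x axis) for Xbp1 and Hspa8 in all nuclei, unassigned nuclei, cell classes and neuronal subclasses (y axis), with 95% intervals, purple where the adjusted p over all genes of that class is at most 0.05. Xbp1 is called in 5 of the sums, from 0.42 in glutamatergic neurons to 0.73 in astrocytes, and Hspa8 in 0. Rows without a point did not pass the filter on low counts.

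Alcohol, averaged over both genotypes, called 0 of the 10 members by edgeR in all nuclei, where 3.3% of all genes were called, with 0 members at an unadjusted p of 0.05, beside 20.9% of all genes, and 0 by DESeq2, beside 1147 genes. Hspa5 was at 0.05 (-0.23 to 0.32), Hspa8 at 0.18 (-0.06 to 0.42) and Hsph1 at -0.14 (-0.29 to 0.02). Gm42418 itself fell by 1.93 on the log2 scale over all nuclei in this contrast (adjusted p = 0.0494 by edgeR). With its share as a covariate 0 members were called by edgeR, with Hspa5 at -0.075 and Hsp90aa1 at 0.079, and 0 were called without the 3 mice richest in it. Over the 6 classes and the 8 subclasses 0 members were called by edgeR, where 1.51% and 0.704% of all gene tests were, with 2 of 49 and 5 of 63 member tests at an unadjusted p of 0.05, beside 15.04% and 12.8% of all gene tests, and 1 and 0 called by DESeq2, beside 1033 and 464 of all gene tests. In glutamatergic neurons Hsph1 had a log2 fold change of -0.27 ± 0.08 (SE) and was called by DESeq2 (adjusted p = 0.0348) but not by edgeR (adjusted p = 0.0814).

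Over the 6 planned contrasts, none of the 49 member tests in 6 classes or the 63 in 8 subclasses was called by edgeR. In the classes, 0.408%, 0.0265%, 0.156%, 0.642%, 2.87% and 0.0% of all gene tests were called in the same order of contrasts. The member tests at an unadjusted p of 0.05 numbered 7, 2, 2, 6, 8 and 1, beside 8.32%, 11.1%, 9.22%, 11.04%, 16.4% and 4.38% of all gene tests. DESeq2 called 1, 0, 0, 0, 1 and 0 of the member tests, and 225, 152, 348, 383, 1262 and 1 of all gene tests. In the subclasses, 0.155%, 0.0272%, 0.0606%, 0.38%, 1.12% and 0.0% of all gene tests were called, and the member tests at an unadjusted p of 0.05 numbered 8, 11, 4, 11, 14 and 3, beside 6.27%, 9.53%, 8.08%, 8.83%, 12.04% and 4.31% of all gene tests. DESeq2 called 1 member test, for 3xTg-AD alcohol against WT control, where it called 483 of all gene tests. All 10 members passed the filter on low counts in glutamatergic neurons, 9 in GABAergic neurons and astrocytes, and 7 in oligodendrocytes, their precursors and microglia.

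Other genes of the folding pathways were followed in 6 lists of 98 genes. In all nuclei none was called by edgeR in the 6 planned contrasts or for genotype over both treatments. At an unadjusted p of 0.05 there were 0 to 5 of 28 other cytosolic heat shock genes and 0 to 3 of 25 ER genes. Over the same contrasts 3.48% to 20.1% of all genes were at that p. DESeq2 called at most 1 gene of a list, beside 1 to 1178 of all genes. For alcohol over both genotypes, 1 of 28 other cytosolic heat shock genes fell, Dnajb5 (-0.40 ± 0.10, SE, adjusted p = 0.0420), a J-domain protein, and 1 of 25 tested genes of the unfolded protein response and ER folding fell, Hyou1 (-0.29 ± 0.07, adjusted p = 0.0425), an ER partner of Hspa5. With 3.3% of all genes called in this contrast, 1 gene per list is near the background. For alcohol 1.51% of all gene tests were called over the 6 classes and 0.704% over the 8 subclasses. Among list genes the calls there were Arc in astrocytes (-1.39 ± 0.27, adjusted p = 0.0462) and the mitochondrially encoded mt-Co1 in glutamatergic neurons (0.32 ± 0.08, adjusted p = 0.0495) and L5 ET neurons (0.36 ± 0.09, adjusted p = 0.0463). In unassigned nuclei, where 2.27% of all genes were called, they were the Hsp90 cochaperone Ahsa1 (0.35 ± 0.09, adjusted p = 0.0445) and the mitochondrial protease subunit Clpp (0.40 ± 0.10, adjusted p = 0.0373). The medians of these lists were 0.04 and 0.05, beside 0.01 over all genes. Among the 8 subunits of the chaperonin TRiC, which folds actin and tubulin, the median for WT alcohol against WT control was 0.24 beside -0.01 over all genes, with 4 of 8 subunits at an unadjusted p of 0.05, beside 14.2% of all genes, and 0 called (0 by DESeq2). Cct3 (0.33 ± 0.12, adjusted p = 0.274 by edgeR) and Cct4 (0.31 ± 0.12, adjusted p = 0.299) had the smallest p there. The TRiC values are from a single contrast and not from the average over genotypes, and WT control 26 and 27 stood apart by Gm42418.

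For genotype over both treatments, the 25 tested genes of the unfolded protein response beside Xbp1, Hspa5 and Hsp90b1 had a median of 0.02 beside -0.01 over all genes, and 0 were called by edgeR, with 2 at an unadjusted p of 0.05, beside 16.2% of all genes, and 0 by DESeq2. Canx, an ER lectin chaperone, had the smallest p (-0.22 ± 0.08, adjusted p = 0.132), followed by Creld2 (0.36 ± 0.15, adjusted p = 0.216). In classes the calls for genotype were Hspa13, an Hsp70 of the ER, in astrocytes (0.75 ± 0.20, adjusted p = 0.0274) and Chordc1, an Hsp90 cochaperone, in L2/3 IT neurons (0.38 ± 0.09, adjusted p = 0.0211). Of all genes 3.43% were called in astrocytes and 1.58% in L2/3 IT neurons. The 9 mitochondrial chaperones and proteases, the 13 immediate early genes and the 13 mitochondrially encoded genes had medians of -0.03, 0.02 and -0.12 with 0 called in all nuclei by edgeR or DESeq2, and 1, 0 and 1 gene at an unadjusted p of 0.05. The genes with the smallest p were Lonp1 (0.23 ± 0.08, adjusted p = 0.164 by edgeR) and Hspa9 (-0.10 ± 0.07) among the mitochondrial chaperones and proteases, Jun (0.18 ± 0.11) and Dusp1 (-0.19 ± 0.20) among immediate early genes, and mt-Nd6 (-0.47 ± 0.17, adjusted p = 0.145) and mt-Co1 (-0.24 ± 0.12) among mitochondrially encoded genes. Among the other cytosolic heat shock genes they were Chordc1 (0.25 ± 0.08, adjusted p = 0.0987) and Hsf1 (0.16 ± 0.07), and among TRiC subunits Tcp1 (-0.08 ± 0.07) and Cct2 (-0.07 ± 0.10).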

How the data were processed

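The authors prepared nuclei libraries with the 10x Genomics 3′ chemistry, aligned reads to mm10 with Cell Ranger 6.1.1 (STAR), and deposited 1 table of raw UMI counts per gene and nucleus. Their limits for keeping nuclei are not given in the sources used here. The members, gene lists and markers were chosen with earlier results of these data known.

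Nuclei were not given the authors' cell type names. They were scored against marker profiles of each class and of mixtures of 2 classes. Those nearest to a mixture, as doublets or nuclei with free RNA would be, stayed unassigned (51882 nuclei), as did those whose best profile led by under 3 natural log units. Counts were summed per mouse and class, with at least 10 nuclei per mouse. Groups were compared with edgeR 4.0.16 (TMM factors, filterByExpr, quasi-likelihood test, all 16 mice in 1 model), with Benjamini-Hochberg adjustment over all genes tested in a class and contrast, and calls at an adjusted p of at most 0.05. DESeq2 1.42.0 was an alternative. The script was tested on simulated data. Levels between classes are CPM, compared within mice on log2 of CPM (0.5 counts added) by an exact sign-flip permutation test with adjustment over the family. A mouse is the replicate. Intervals of pooled counts cover counting error only. Which mice shared a litter or a library batch is not given in the sources used here.

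All 10 members are named in the text. From each pathway list, the genes named are those called in all nuclei or, where none is called, the 2 with the smallest p in the contrast described. Genes of like pattern are the 3 with the highest correlation to Hspa8, Hsp90ab1 and Hspa5. List genes called within a class were named after their values were seen. Both contrasts averaged over treatments or genotypes, both limits on UMIs per nucleus for levels, the assignment without mixtures, the free RNA gauges and the motifs were chosen after the data were seen.

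One allele of the 3xTg-AD line is not reported here.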

Additional observations from a re-analysis of the deposited data

Results flagged for a closer look

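Among 80 groups of 4 mice, 2 had a mouse far from the other 3, and chance alone flags about 1 group in 20. Xbp1 over all nuclei was at 67.0 CPM in 3xTg-AD alcohol mouse 34, against 93.0 to 96.7 CPM in the other 3. Hspa1a in glutamatergic neurons was at 2.88 CPM in WT alcohol mouse 18, against 3.68 to 3.81 CPM in the other 3.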

How the results depend on the processing

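Depth limits Hspa1a and Dnajb1 most. RLE size factors, a wider marker lead, at least 1000 UMIs per nucleus and no filter on low counts left the counts of called members within 1.5 times, except no filter for subclasses. Level differences between GABAergic and glutamatergic neurons changed with TMM factors: Hsph1 -0.19, Dnajb1 -0.18, Dnaja1 0.049 and Xbp1 -0.21. Hsph1 was at -0.11 in nuclei with 1500 to 2500 UMIs. Against glutamatergic neurons, TMM factors reversed Hspa5 (-0.038) and Xbp1 (-0.40; -0.40 also with at least 1000 UMIs) in oligodendrocytes, Xbp1 in their precursors (-0.21) and Hsph1 in microglia (-0.14).

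Called members over classes became 1 for 3xTg-AD against WT control (DESeq2, and without the 3 mice richest in Gm42418), 1 for 3xTg-AD alcohol against WT alcohol (no mixtures), 1 (DESeq2, Gm42418 covariate, no mixtures) or 2 (without those 3 mice) for 3xTg-AD alcohol against WT control, 4 for genotype over both treatments (without those 3 mice) and 1 for alcohol over both genotypes (DESeq2). Over subclasses the count was 1 without those 3 mice for 3xTg-AD against WT control, 1 (DESeq2) or 2 (without those 3 mice) for 3xTg-AD alcohol against WT control, and 2 (DESeq2, no filter) or 5 (without those 3 mice) for genotype over both treatments. Apart from DESeq2, the shares of all genes called under these settings are not given here. A higher count can therefore not be read as a result about the members. The causes were not tested.

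Leaving out 1 mouse at a time, the members called for genotype over both treatments ranged from 0 (without 3xTg-AD 13) to 1 in all nuclei, from 0 (without 3xTg-AD 14) to 3 over classes and from 1 to 2 over subclasses. The count for 3xTg-AD alcohol against WT control ranged from 0 to 1 over classes (1 without WT control 26 or 27) and over subclasses (1 without WT control 26). Over subclasses it ranged from 0 to 1 for 3xTg-AD alcohol against WT alcohol (1 without WT alcohol 17) and for alcohol over both genotypes (1 without 3xTg-AD alcohol 31). The shares of all genes called in these fits are not given here either.

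None of the log2 fold changes in all nuclei that reversed was called. With the Gm42418 covariate, alcohol over both genotypes gave Hsp90aa1 0.079, Hspa5 -0.075 and Hsp90b1 -0.0080, and without the 3 mice Hsp90aa1 0.0023 and Hspa5 -0.020, with Hsph1 0.041 for genotype. Leaving out 1 mouse at a time, genotype ranged from -0.062 to 0.00094 (Hsph1), -0.037 to 0.064 (Dnaja1), -0.15 to 0.038 (Dnajb1), -0.011 to 0.13 (Hspa5) and -0.052 to 0.024 (Hsp90b1), and alcohol from -0.11 to 0.048 (Hsp90aa1), -0.0088 to 0.13 (Hsp90ab1), -0.0080 to 0.093 (Dnaja1), -0.13 to 0.063 (Dnajb1) and -0.022 to 0.13 (Hspa5).

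No paired analysis was possible because replicate numbers are those of single mice and are not shared between groups. This concerns comparisons between groups, since cell classes were compared within mice.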
